A study of Mus musculus with 3 samples.

Results

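The complement, coagulation and fibrinolysis genes are 51 of the 56941 genes in a count table of adult mouse brain microvessels, taken by symbol: complement components and their regulators, clotting factors, anticoagulant proteins and the plasminogen system. All 51 were found. The table holds 3 libraries of polyadenylated RNA, replicates 1, 2 and 3, from wild-type C57BL/6J mice (n = 3). Microvascular fragments were freed from brain tissue mechanically and with enzymes, so each library mixes endothelium with the cells that stay attached to it. The libraries form 1 group without sorted cells, whole brain or another control, and the labels give no sex, exact age or batch.

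Complement is a chain of plasma proteases that tags surfaces for uptake and can end in a membrane pore; it starts from C1, from lectins or by spontaneous turnover of C3. Coagulation is a second protease chain that runs from tissue factor to thrombin and fibrin, and endothelium holds it back with thrombomodulin, the protein C receptor and tissue factor pathway inhibitor. Plasmin, made from plasminogen by tissue-type or urokinase-type activator, dissolves fibrin. Most plasma components of these systems are made by hepatocytes, whereas C1q is made by microglia in brain and the anticoagulant receptors sit on endothelium.

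Depth was 128428355, 136672205 and 150449539 counts in replicates 1, 2 and 3. Levels are CPM (counts scaled to a common normalised library size), and a gene counted as detected where each library reached 1 CPM. A count of 0 allows a level of up to 0.0231, 0.0215 and 0.0207 CPM in replicates 1, 2 and 3 (3 counts of the library), for counting error only. All 10 endothelial, 10 mural and 10 microglial marker genes were detected, and so were all 10 choroid plexus, 10 astrocyte and 10 fibroblast markers. Summed endothelial markers ran from 18984 to 24745 CPM and summed microglial markers from 5169 to 7019 CPM, against 119 to 144.5 CPM for neuronal markers. Of 10 liver markers, 2 were detected: transthyretin (Ttr), which choroid plexus also makes, and Cyp2e1, with 5.26, 8.39 and 8.45 CPM. Of the others, Hp had 0.791, 0.980 and 0.599 CPM and Apoc3 0.338, 1.13 and 0.565 CPM. Albumin (Alb) had 0.146, 0.229 and 0.110 CPM, and Ahsg and Ambp had no count.

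Promoter sequences are shown for a pair of neighbouring genes that were among the highest members and for a pair with no count at all. They are RefSeq windows of 300 bases across the annotated start site (build GRCm38.p6, another build than the count table's GRCm39), found by symbol for 37 of the 51 members. Capitals mark 2 motifs on either strand: GAGGAA, the core bound by the myeloid factor PU.1 and other ETS proteins, and GTTAAT, part of the site of the hepatocyte factor HNF1. The C1qb window is chr4:136886151-136886450 and the C1qc window chr4:136892865-136893164, both on the minus strand. The Fga window is chr3:83025903-83026202 on the plus strand, and the Fgb window is chr3:83049814-83050113 on the minus strand.
C1qb: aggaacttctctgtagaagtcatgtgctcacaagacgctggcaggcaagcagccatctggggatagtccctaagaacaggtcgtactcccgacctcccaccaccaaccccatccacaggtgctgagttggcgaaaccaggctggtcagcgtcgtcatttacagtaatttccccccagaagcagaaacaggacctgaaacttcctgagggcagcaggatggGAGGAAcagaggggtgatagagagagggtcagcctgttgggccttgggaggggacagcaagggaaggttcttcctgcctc
C1qc: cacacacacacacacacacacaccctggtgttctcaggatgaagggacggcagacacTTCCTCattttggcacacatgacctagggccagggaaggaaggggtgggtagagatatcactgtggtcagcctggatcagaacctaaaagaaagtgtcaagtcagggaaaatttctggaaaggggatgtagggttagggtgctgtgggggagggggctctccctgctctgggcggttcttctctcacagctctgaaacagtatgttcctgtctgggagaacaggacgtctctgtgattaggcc
Fga: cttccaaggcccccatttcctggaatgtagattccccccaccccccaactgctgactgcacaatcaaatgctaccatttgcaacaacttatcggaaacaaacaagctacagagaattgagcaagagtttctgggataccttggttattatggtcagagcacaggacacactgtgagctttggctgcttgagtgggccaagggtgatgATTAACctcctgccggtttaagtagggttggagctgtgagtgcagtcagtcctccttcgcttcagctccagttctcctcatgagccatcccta
Fgb: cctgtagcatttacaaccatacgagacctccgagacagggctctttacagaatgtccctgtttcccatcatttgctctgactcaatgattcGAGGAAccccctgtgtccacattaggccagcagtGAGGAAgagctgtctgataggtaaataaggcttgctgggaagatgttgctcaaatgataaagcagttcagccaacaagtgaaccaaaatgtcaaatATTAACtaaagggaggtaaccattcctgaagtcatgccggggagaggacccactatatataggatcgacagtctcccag

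GAGGAA occurred once each in the C1qb window, 30 bases before the start site, and in the C1qc window, 193 bases before it. The Fgb window held 2 matches of GAGGAA and the Fga window 0. GTTAAT started 43 bases before the start site in Fga and 29 bases before it in Fgb, and had 0 matches in C1qb and C1qc. The windows of Fgg, F11 and Cfd, the other members without any count, also held 0 matches of GTTAAT. Further windows with GTTAAT were those of Hc, C7 and F2, which were not detected. Windows of the detected members C1ra, Cfp, Cd55 and Tfpi2 held it as well. GAGGAA occurred in 28.3% of all 32851 RefSeq windows and in 13 of the 43 windows of members, and GTTAAT in 7.10% of all windows and in 10 of the 43. The motifs do not overlap each other in letters. These matches describe the sequence and do not show that a factor binds there.

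Of the 51 members, 31 were detected and 11 reached 100 CPM in all 3 libraries. Over all 56941 genes in the table, 23.2% were detected and 1964 genes reached 100 CPM in all 3 libraries. The median member stood at 1.98 ± 0.16 on the log2(CPM + 1) scale (SD of the 3 library medians), between a group of abundant genes and a group near 0. By comparison, the median was 4.79 over the 13211 detected genes and 0.01 over the whole table. Of the 20 members that were not detected, 13 had some count in every library without reaching 1 CPM, 5 had none in any library, F8 reached 1 CPM in replicates 1 and 2, and Proc had a single count in replicate 2. Together the members took 0.595%, 0.509% and 0.619% of all counts in replicates 1, 2 and 3.

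**Figure D1:**
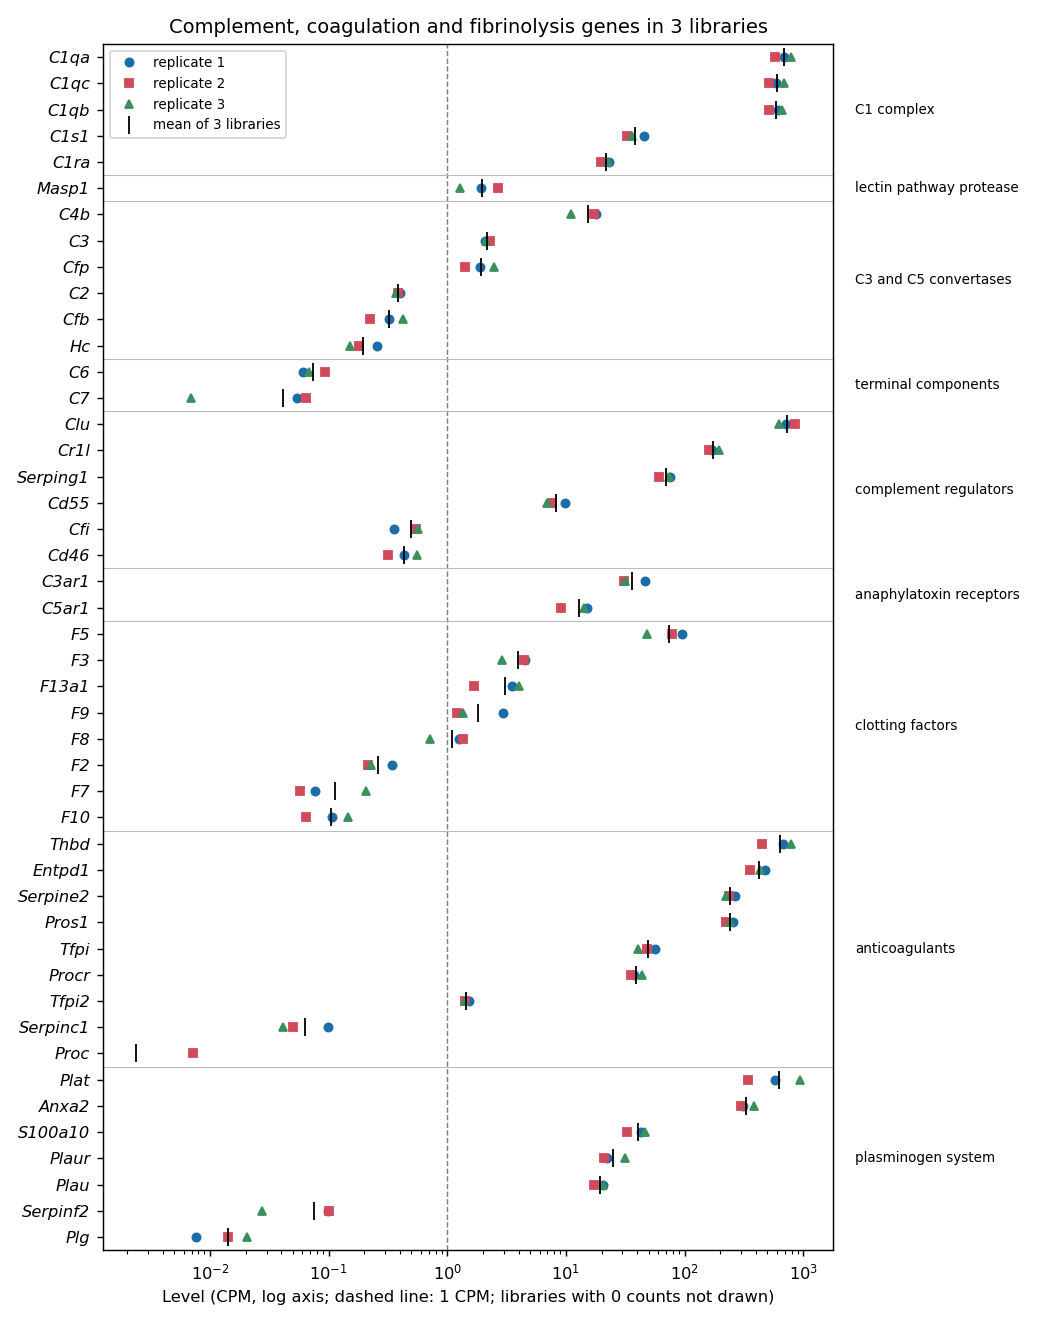
Level of each member with a count (CPM, log axis) in replicates 1, 2 and 3, with the mean as a bar, grouped by role; the dashed line is 1 CPM, and Cfd, F11, Fga, Fgb and Fgg are not drawn because they had no count. The C1q chains, Clu, Thbd and Plat lie between 346 and 943 CPM, while most liver-type plasma factors lie to the left of the line.

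The C1 complex, which starts the classical pathway, was detected in full, and its recognition chains were among the most abundant members. C1qa, the A chain of C1q, had 687, 579.8 and 793 CPM in replicates 1, 2 and 3 (686 ± 106, SD). C1qb had 608, 513 and 663 CPM, and C1qc had 592, 519.7 and 685 CPM. All 3 chains were lowest in replicate 2 and highest in replicate 3, and together they held 0.191%, 0.165% and 0.206% of the counts.

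Scaled by exonic length, the chains stood in a fixed order. C1qa had 660.0 ± 102 CPM per kb of exon, rank 39 of the 12826 detected genes with a length, C1qb had 546 ± 69.7 CPM per kb and C1qc 310.2 ± 42.8 CPM per kb. The log2 ratio of C1qb to C1qa was -0.24, -0.24 and -0.32 in the 3 libraries, and that of C1qc to C1qa -1.11, -1.05 and -1.10, so the ratios moved less between mice than the levels did. Without length scaling the ratio of C1qc to C1qa was -0.19, so its size rests on the longer exonic length annotated for C1qc. The place of C1qc below C1qb rests on that length too. In CPM, C1qc was above C1qb in replicates 2 and 3. The genes lie side by side on chromosome 4 in the RefSeq table, with no annotated gene between them.

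C1q levels can be set beside the markers of microglia, the cells known to make it. Of the 10 microglial markers, 8 were lowest in replicate 2 and 8 were highest in replicate 1, with mean log2 deviations of 0.27, -0.24 and -0.03. C1qa deviated by 0.01, -0.23 and 0.22. Both were low in replicate 2, but the chains peaked in replicate 3 and the marker list in replicate 1; the part of microglial content in the C1q levels was not tested. In bulk RNA, fewer cells of a type and less RNA per cell cannot be told apart.

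The proteases of C1 were far less abundant than its recognition chains. C1ra, which activates C1s, had 23.0, 19.9 and 22.7 CPM, and C1s1, which cleaves C4 and C2, had 45.5, 32.6 and 36.0 CPM. Per kb, C1s1 exceeded C1ra in all 3 mice, by 0.72 ± 0.17 on the log2 scale. Both counts are uncertain: 42.4% of the 75-base words of C1ra and 24.8% of those of C1s1 also occur in other genes, mainly the copies C1rb and C1s2, which had at most 0.0143 and 0.0551 CPM. C1s1 also lies opposite Gm16567 over 18.4% of its exons. Masp1, the lectin pathway protease, was near the detection limit at 1.93, 2.68 and 1.29 CPM.

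The components that build the C3 and C5 convertases were low, and only C4b exceeded 10 CPM. C4b, which becomes part of the classical convertase, had 18.1, 17.3 and 11.04 CPM, lowest in replicate 3. Its count is uncertain because 22.7% of its 75-base words occur in C4a, which had at most 0.108 CPM. C3, the centre of all 3 pathways, had 2.07, 2.28 and 2.11 CPM, with a spread of 5.10% between mice. Cfp (properdin), which stabilises the alternative convertase, had 1.91, 1.42 and 2.46 CPM.

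The other partners of C3 stayed under the limit. C2 had 52 to 54 counts per library (0.386 ± 0.0138 CPM), Cfb 31 to 61 counts, and Hc, the mouse C5 gene, 22 to 33 counts. C2 and Cfb share 42.8% and 79.5% of their exonic length with the read-through gene Gm20547 on the same strand, so their counts are uncertain. Cfd (adipsin), the protease that cleaves factor B, had no count in any library. The terminal components C6, with 8 to 13 counts, and C7, with 1 to 9 counts, were near 0 as well.

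Among the complement regulators, clusterin and the rodent convertase inhibitor Crry stood out. Clu, a secreted chaperone that blocks pore assembly, had 722, 849 and 621 CPM. Serping1, the C1 inhibitor, had 75.5, 61.4 and 74.2 CPM. Cr1l, which encodes Crry on the cell membrane, had 169, 162 and 193 CPM.

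The membrane regulators Cd55 and Cd46 were lower than Cr1l. Cd55, which speeds convertase decay, had 9.86, 7.71 and 6.999 CPM; per kb it was 10.1-fold below Cr1l on average (log2 ratio -3.33 ± 0.34). Cd46, a cofactor that is mainly a testis gene in mice, had 0.432 ± 0.118 CPM, or -8.25 ± 0.28 against Cr1l per kb. Both ratios had the same sign in all 3 mice. Cfi, the protease that needs such cofactors, had 0.492 ± 0.120 CPM. Cd46 lies opposite other transcripts over 14.2% of its exons, and the strand setting is not given.

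Both anaphylatoxin receptors, which myeloid cells use to sense C3a and C5a, were detected. C3ar1 had 46.9, 30.7 and 31.7 CPM, highest in replicate 1. C5ar1 had 15.1, 9.11 and 14.3 CPM, lowest in replicate 2. Per kb, C3ar1 exceeded C5ar1 in each mouse (log2 ratio 0.89, 1.01 and 0.40).

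Of the 12 clotting factor and fibrinogen genes, 4 were detected, and factor V was the only one above 5 CPM. F5, the cofactor of the prothrombinase complex, had 95.6, 78.4 and 48.2 CPM. It was highest in replicate 1 and lowest in replicate 3, a 1.98-fold range. F3 (tissue factor), the starter of coagulation, had 4.52, 4.43 and 2.92 CPM.

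F13a1, the fibrin-crosslinking subunit known from platelets and tissue macrophages, had 3.54, 1.69 and 4.01 CPM, and F9 (factor IX) had 2.93, 1.21 and 1.35 CPM. F8, the haemophilia A gene, lay at the limit with 1.25, 1.35 and 0.716 CPM. F2 (prothrombin) had 30 to 45 counts, F7 8 to 30 and F10 9 to 21. The fibrinogen chain genes Fga, Fgb and Fgg and the factor XI gene F11 had no count in any library.

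Levels of F5 ran in the same order over the mice as several marker lists. All 10 choroid plexus markers were lowest in replicate 3 and 8 of 10 were highest in replicate 1, with mean log2 deviations of 0.37, 0.11 and -0.47 against 0.42, 0.14 and -0.55 for F5. Kl (klotho), one of the 10, had 260.3, 196 and 127 CPM. Their summed level was 7125, 8359 and 5167 CPM, most of it Ttr. Erythroid markers had the same order, with mean log2 deviations of 1.89, -0.53 and -1.37 over the 6 of 8 detected, and so did monocyte and granulocyte markers, with 0.31, 0.02 and -0.32 over the 5 of 10 detected. The mean over the 9 detected neuronal markers shared that order too, with deviations of 0.22, -0.09 and -0.13. Of these 9, however, 5 were lowest in replicate 2 and 4 in replicate 3. The summed level of all 10 neuronal markers was 144.5, 118.8 and 130.8 CPM, lowest in replicate 2. Platelets carry factor V too, and 2 of 10 platelet markers were detected. The summed level of all 10, at 25.4, 8.74 and 9.84 CPM, was highest in replicate 1, as F5 was. The part of any of these cells in the F5 level was not tested.

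Replicate 3 held the lowest level of 9 detected members (29.0%), near its share of 30.6% over all detected genes. The 9 were C4b, Cd55, Clu, F3, F5, Masp1, Serpine2, Tfpi and Tfpi2. Of these, Clu and Masp1 were highest in replicate 2 and the other 7 in replicate 1. Of the 10 astrocyte markers, 9 were lowest in that library, with mean log2 deviations of 0.10, 0.22 and -0.32 and summed levels of 1782, 1993 and 1091 CPM. F13a1 was highest in replicate 3 and lowest in replicate 2, where 21 of the 31 detected members were lowest. The 4 detected genes among 9 border macrophage markers were lowest in replicate 2 too, but 3 of them were highest in replicate 1. Their list had a summed level of 284, 255 and 330.4 CPM, mostly Stab1. The part of these cells in the levels was not tested.

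Of the 9 anticoagulant genes, 7 were detected and 4 exceeded 100 CPM in all libraries, against 4 of 12 and 0 among clotting factors and fibrinogen. Thbd (thrombomodulin), the endothelial receptor that turns thrombin into an activator of protein C, had 671, 453 and 795 CPM. Procr, the endothelial protein C receptor, had 37.4, 35.1 and 44.1 CPM. Per kb, Thbd exceeded Procr 8.78-fold on average (log2 ratio 3.13 ± 0.28), in 3 of 3 mice.

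Proc, the gene of protein C itself, had 0, 1 and 0 counts. Pros1 (protein S), the cofactor of activated protein C and a ligand of TAM receptors, had 258, 224 and 239 CPM, within a spread of 7.14%. Entpd1 (CD39), which degrades the platelet agonist ADP, had 475, 359.8 and 429 CPM. Pros1 and Entpd1 were both lowest in replicate 2 and highest in replicate 1.

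Tissue factor pathway inhibitor exceeded tissue factor in every mouse. Tfpi had 56.7, 48.7 and 40.8 CPM, and its per kb level was above that of F3 by 2.54, 2.35 and 2.69 on the log2 scale. Its relative Tfpi2, a matrix-bound plasmin inhibitor, was nearly flat at 1.51, 1.42 and 1.41 CPM. Serpine2 (protease nexin 1), which blocks thrombin and plasminogen activators, had 267, 238 and 224 CPM. Serpinc1 (antithrombin), a liver serpin, had 6 to 13 counts, and 34.4% of its exonic length lies opposite Zbtb37.

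In the plasminogen system the tissue-type activator was abundant and its substrate had at most 3 counts per library. Plat (tPA) had 574, 346 and 943 CPM, the widest range among members above 50 CPM at 2.73-fold. Plau (urokinase) had 20.7, 17.2 and 20.5 CPM, and its receptor Plaur had 22.1, 21.1 and 31.7 CPM. Per kb, Plat exceeded Plau 11.2-fold on average, with log2 ratios of Plau to Plat of -3.40, -2.93 and -4.13.

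Plg (plasminogen) had 1, 2 and 3 counts, and Serpinf2, the plasmin inhibitor of plasma, 4 to 14 counts. Anxa2 and S100a10, which form the surface complex that binds tPA and plasminogen, had 312, 298 and 383 CPM and 43.1, 32.7 and 46.4 CPM. Per kb, S100a10 was 2.65-fold below Anxa2 on average (log2 ratio -1.41 ± 0.17). Per kb, Serpine2 lay below Plat in each mouse, with log2 ratios of -1.51, -0.95 and -2.48, the lowest of them where Plat was highest.

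**Figure D2:**
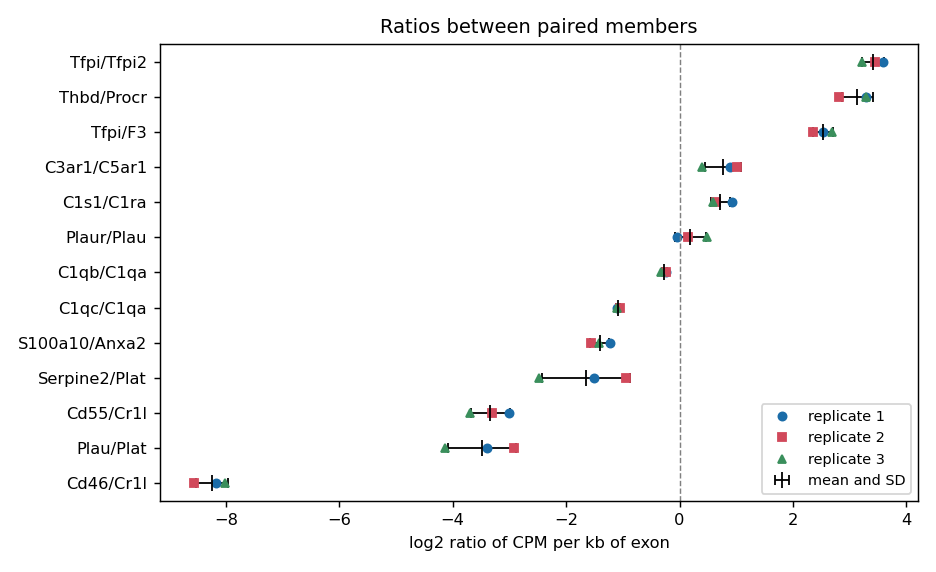
Log2 ratio of CPM per kb of exon for 13 pairs of members; points are replicates 1, 2 and 3, and bars are the mean and SD over 3 libraries. Over the mice, the ratio of C1qb to C1qa ranges over 0.08 and that of C1qc to C1qa over 0.06, those that contain Plat spread most, and Plaur against Plau is the only pair with values on both sides of 0.

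Scaled by length, the members ranked in the order C1qa, C1qb, C1qc, Clu, Thbd, Plat, Anxa2, Entpd1 and Pros1 at the top. Clu had 213 ± 33.2 CPM per kb, Thbd 172 ± 46.4, Plat 99.5 ± 48.3, Anxa2 88.7 ± 12.2, Entpd1 75.5 ± 10.4 and Pros1 58.8 ± 4.20 CPM per kb. In this order the ranges of mean ± SD overlapped between neighbours except from C1qb to C1qc, from C1qc to Clu and from Entpd1 to Pros1, and C1qb was below C1qa in every library. Pros1, at rank 793 of 12826 detected genes, was the lowest of these. Exonic lengths come from GENCODE M21 and join all exons of a gene, so genes with long minor isoforms are scaled down more than their main transcript warrants.

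Variation between the mice was tested for every gene that passed the filter on low counts. An upper-tail F test set each gene's quasi-likelihood dispersion from edgeR against its prior. It asks whether a gene spreads more over the libraries than genes of its abundance. Of 18087 genes tested, 0.0829% were called at an adjusted p under 0.05; of the 38 members that passed the filter on low counts, 0 were called. At an unadjusted p under 0.05 there were 7 of the 38 members (Plat, F5, C3ar1, F9, F13a1, C4b and Plaur), against 5.18% of all genes tested. Plat had the smallest of these (edgeR adjusted p = 0.613) and F5 the next (edgeR adjusted p = 0.660). DESeq2 marked 1 member, Plat, as a dispersion outlier, against 0.449% of the 30513 genes it fitted. Without the filter on low counts Plat was called by edgeR (adjusted p = 0.0277), where 0.567% of all genes were called. Without replicate 2 F5 was called (edgeR adjusted p = 0.0336), where 0.436% of all genes were called.

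A range of at least 2-fold between the highest and the lowest mouse occurred in 4 of the 31 detected members, against 2.41% of all detected genes. They were Plat at 2.73-fold, F9 at 2.42-fold, F13a1 at 2.37-fold and Masp1 at 2.08-fold, and all but Plat lay under 5 CPM. The median coefficient of variation was 16.3% over the detected members and 9.59% over all detected genes. Replicate 2 held the lowest level of 21 of the 31 members, whereas it held the lowest level of 30.8% of all detected genes. Replicate 2 was also the lowest for 8 of 10 microglial, 7 of 10 fibroblast and all 4 detected border macrophage markers, and for 5 of 9 detected neuronal markers. It was the lowest for 2 of 10 endothelial, 3 of 10 mural, 0 of 10 astrocyte and 0 of 10 choroid plexus markers. Summed anterior pituitary markers were highest there, with 20.7, 1451 and 18.3 CPM, most of it Gh. Summed erythroid markers were lowest in replicate 3, with 1259, 297.5 and 216 CPM. The part of these lists in the members' order was not tested. Replicate 1 was the lowest for 1 member, C3, against 38.6% of all detected genes.

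**Figure D3:**
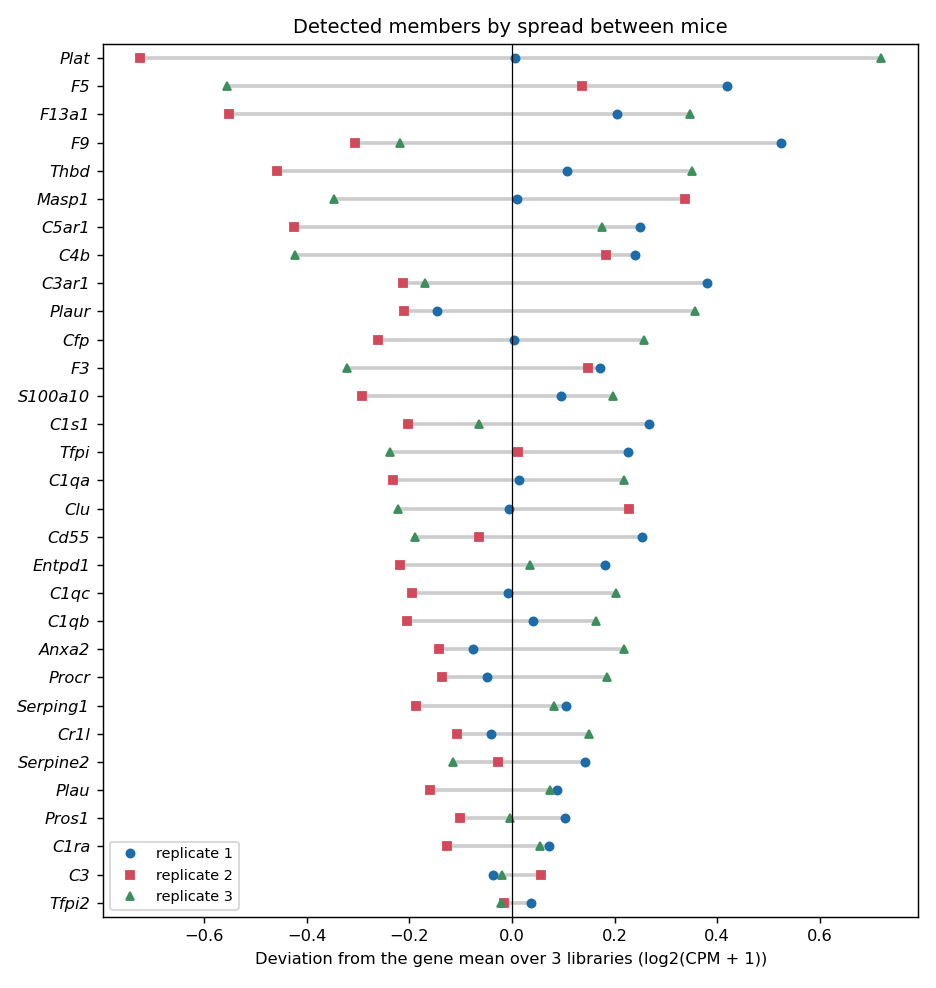
Deviation of each detected member in replicates 1, 2 and 3 from its mean over the libraries (log2(CPM + 1)), ordered by range. Plat spans from -0.72 in replicate 2 to 0.72 in replicate 3, and Tfpi2 and C3 at the bottom hardly differ between mice.

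Plat and Thbd had their lowest level in replicate 2 and their highest in replicate 3. The same order was found in the detected members C1qa, C1qb, C1qc, Cfp, Cr1l, F13a1, Procr, Plaur, Anxa2 and S100a10. The endothelial markers did not follow that order: 7 of 10 were lowest in replicate 1 and 8 of 10 were highest in replicate 3, with summed levels of 18984, 20468 and 24745 CPM. Of the 10, Slc2a1 did follow it at 5391, 4600.0 and 7338 CPM, and Emcn at 388, 384.9 and 430.1 CPM. Early response genes, which respond to handling and stress, ran from a mean log2 deviation of -0.79 in replicate 1 to 0.77 in replicate 2 and 0.02 in replicate 3, and all 10 were lowest in replicate 1. Inflammatory activation genes, with 4 of 10 detected, deviated by -0.68, 0.67 and 0.01. The part of these shifts in the levels of Plat, Thbd and the members with the same order was not tested.

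**Figure D4:**
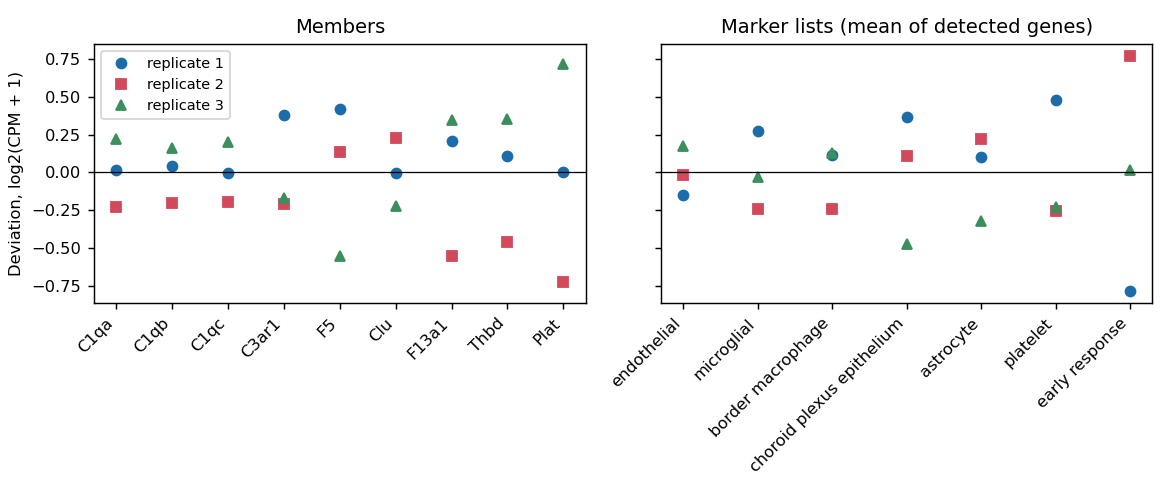
Deviation in replicates 1, 2 and 3 from the mean (log2(CPM + 1)) for 9 members at left and for the mean of the detected genes of 7 marker lists at right. F5 and the choroid plexus list are among those that show the same order of the mice. The C1q chains, C3ar1, F13a1, Thbd and Plat are all lowest in replicate 2. The microglial, border macrophage and platelet lists are lowest there too, and the early response list is highest there.

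Other genes of the same pathways were taken from 3 further lists. Of 34 further complement genes 14 were detected, of 25 further coagulation genes 12, and of 11 further fibrinolysis genes 8. None of the 41 that could be tested was called by the dispersion test. Among the highest complement genes were Cd93, an endothelial and myeloid surface protein, at 742 ± 59.5 CPM, Vtn (vitronectin) at 625 ± 101 CPM and Cd59a, a blocker of the membrane pore, at 102 ± 12.6 CPM. The lectin genes Mbl1 and Mbl2 and the terminal gene C8b had no count.

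Vwf (von Willebrand factor) led the coagulation list at 2245, 1793 and 2545 CPM, with the same order over the mice as Plat and Thbd. Anxa5, which covers procoagulant phospholipid, had 397 ± 26.4 CPM. Mcfd2 and Lman1, the receptor pair that carries factors V and VIII out of the endoplasmic reticulum, had 160.3 ± 5.10 and 119 ± 7.96 CPM. A2m, a broad protease inhibitor, was the single detected gene of the further lists with a range above 2-fold, at 39.8, 13.2 and 22.0 CPM (edgeR adjusted p = 0.323).

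In the fibrinolysis list Eno1, a glycolytic enzyme that can bind plasminogen, had 429 ± 41.7 CPM, and Lrp1, the clearance receptor of tPA, had 363 ± 47.7 CPM. Thbs1 followed at 38.0 ± 7.28 CPM and Serpini1 (neuroserpin), a brain inhibitor of tPA, at 31.9 ± 3.86 CPM.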

How the data were processed

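RNA of 3 libraries (400 ng input, paired reads of 150 bp, stranded poly(A) library kit) was analysed. The authors deposited whole-number counts per gene, not normalised; per the submitters' processing notes they used featureCounts and Subread 1.4.6-p5 with build GRCm39. Not given in the sources used here are the aligner, annotation, strand setting and treatment of multi-mapping reads. The series' design text names 3 mice, so each replicate was treated as 1 mouse.

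CPM used TMM library sizes (edgeR 4.0.16, R 4.3.3; factors 1.01, 1.02 and 0.965), and lists log2(CPM + 1). CPM per kb used exonic lengths from GENCODE M21 (GRCm38, 49083 genes, at least 98.3% of counts), which served also for overlaps. After filterByExpr, edgeR fitted a quasi-likelihood model with an intercept alone. Each dispersion was compared with its prior by an upper-tail F test, Benjamini-Hochberg adjusted at 0.05. The test was also run on simulated counts, but the outcome is not given here, so its power with 3 libraries is left unstated. DESeq2 1.42.0 was an alternative. With 1 group no contrast exists, and 3 mice allow a sign-flip p of 0.25 at the smallest. Full values were given for members at 50 CPM or more and at least 1 per role below that; of the other pathway lists the 4 highest were named, apart from a gene that is not reported here. Daf2 was matched as Cd55b through RefSeq synonyms. Members, lists and rules were chosen with earlier results of these data known.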

Additional observations from a re-analysis of the deposited data

How the results depend on the processing

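The number of detected members was 31 and ranged from 24 at a limit of 5 CPM to 32 at 0.5 CPM, and from 31 to 32 when single replicates were left out. The number of members called variable was 1 without the filter (Plat), 1 without replicate 2 (F5) and 1 with DESeq2 (Plat), and 0 with other size factors, a robust prior or either other replicate left out, so it ranged from 0 to 1 over the replicates left out. Over all genes these settings called 173 without the filter, 80 without replicate 2 and 137 with DESeq2, against 15. The median member stood at 1.58 with a pseudocount of 0.1, at 3.00 with 5 and at 5.31 over detected members, and between 1.81 and 2.22 with single replicates left out; the first 2 are changes of scale. Without length scaling, log2 ratios were -0.20 for C1qb/C1qa, -0.19 for C1qc/C1qa, 1.51 for C3ar1/C5ar1, 4.01 for Thbd/Procr, 5.06 for Tfpi/Tfpi2, 3.64 for Tfpi/F3, -4.88 for Plau/Plat, -3.03 for S100a10/Anxa2, -8.69 for Cd46/Cr1l and -4.43 for Cd55/Cr1l, because the exonic lengths differ. No ratio changed sign under these alternatives. No ratio was computed for Pros1/Proc, since Proc had no count in 2 libraries. Levels of single members moved by no more than their SD with DESeq2 size factors and with plain library totals. Leaving out 1 of 3 replicates cannot shift a mean by more than its SD, so that comparison decides nothing for single members. No paired analysis was possible because all 3 libraries form 1 group.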
